A study of Drosophila melanogaster with 27 samples.

Results

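The results concern the 9 input libraries of a study of Fmr1-bound RNA in pupal heads of Drosophila melanogaster, compared by the replicate number in their titles. Inputs numbered 2 and 3 (4 libraries) were set against inputs numbered 1, 5 and 7 (5 libraries), out of 27 libraries in the series. The other 18 libraries are pull-downs with antibodies to Fmr1 (9) or with mouse IgG (9). Input is RNA from lysate set aside before the pull-down, so it reflects the RNA content of the heads that were collected. Inputs came from w1118, the white-eyed control strain (numbers 1, 2, 3, 5 and 7), and from the mutant Ythdf#0/#0 (numbers 1, 2, 3 and 7), a mutant of CG6422, the gene now called Ythdf. No other allele or agent is named for either genotype. The protocol states 200 heads for each genotype, so each library is taken to stand for a pool of animals. Pupal age and sex were not given, and the labels attach no meaning to a number beyond the replicate. The tissue label reads whole brain while the protocol describes heads, and the inputs held RNA of more than brain. Muscle genes summed to 52570 to 93091 CPM (counts scaled to library size) and photoreceptor and lens markers to 15967 to 23903 CPM, beside 13614 to 22635 CPM for neuron markers.

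Fmr1, the fly homologue of the fragile X protein, is an RNA-binding protein that represses translation of many neuronal mRNAs, and Ythdf is the cytoplasmic reader of N6-methyladenosine in mRNA. A pool of pupal heads also carries a record of how and when the animals were taken. Heat-shock genes are induced by protein damage within minutes of warming, and antimicrobial peptide genes by infection or wounding. Ecdysone pulses drive metamorphosis, so genes for cuticle, eye pigment, photoreceptors and neuronal temporal identity come on and off on a developmental clock. Muscle, blood cells and fat body are also part of the head. In bulk RNA, fewer cells of a type and less RNA per cell cannot be told apart.

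Ythdf followed the genotype labels. It stood at 36.7, 37.6, 32.7 and 30.2 CPM in mutant inputs 1, 2, 3 and 7, and at 57.7 to 71.8 CPM in the 5 w1118 inputs. The groups did not overlap (34.3 ± 3.46 CPM, SD, n = 4, against 64.1 ± 5.23, n = 5; log2 difference -0.90; exact two-sided permutation p = 0.00794). Between the number sets its level was close, with a log2 fold change of 0.05 ± 0.10 (SE) and an adjusted p of 0.926 by edgeR's quasi-likelihood test. Fmr1 itself stood at 62.2 and 59.7 CPM in w1118 inputs 2 and 3 and at 78.4 to 84.4 CPM in w1118 inputs 1, 5 and 7. In the mutants its levels overlapped (77.5 and 64.5 CPM in numbers 2 and 3, 75.2 and 73.1 CPM in numbers 1 and 7), and the log2 fold change was -0.26 ± 0.10 (adjusted p = 0.471).

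The sets differed in depth and in the kind of RNA read. Counts in genes ran from 11677810 to 15459370 in numbers 2 and 3 and from 5623123 (w1118 1) to 14391664 (mutant 1) in the others. Within each genotype every library numbered 2 or 3 was deeper than every other (13893280 ± 1778005, SD, n = 4, against 9187667 ± 3240245, n = 5; exact permutation of the numbers within genotype, p = 0.0167, the smallest that 60 arrangements allow; 0.0434 adjusted over 13 library measures). Reads outside annotated genes took 11.4% and 9.90% of listed reads in w1118 2 and 3, against 6.66%, 8.67% and 8.16% in w1118 1, 5 and 7. In the mutants they took 13.2% and 14.4% in numbers 2 and 3, against 9.83% and 10.6% in numbers 1 and 7. The sets again did not overlap within either genotype (exact permutation p = 0.0167, adjusted 0.0434). The 13 measures hold near-duplicates of both depth and this share. These are listed reads, and the share outside genes among reads not aligned to several places. Each sat at the same smallest p, so the adjusted value rests partly on measures entered in more than 1 form. The share of counts in genes annotated as noncoding RNA was also higher in each genotype's numbers 2 and 3 (1.89 ± 0.0864% against 1.75 ± 0.103%, same p), while that of the mitochondrial genome was not separated (7.09 ± 0.622% against 7.32 ± 1.50%, exact permutation p = 0.767). Rank correlations of whole libraries had a median of 0.986 within a genotype and set, 0.983 across sets of a genotype and 0.969 across genotypes.

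**Figure D1:**
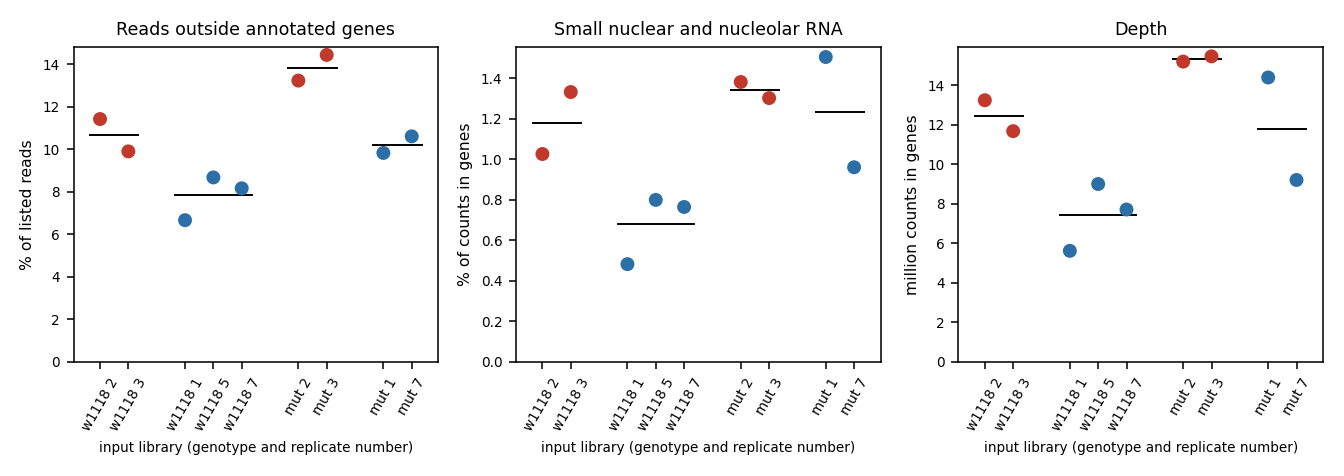
Each point is 1 input library, grouped by genotype and number set (red, numbers 2 and 3; blue, numbers 1, 5 and 7), and black lines are group means. From left to right the vertical axes are the percentage of listed reads outside annotated genes, the percentage of gene counts in small nuclear and nucleolar RNA, and counts in genes; w1118 1 is lowest in all 3 panels, at 6.66%, 0.483% and 5623123 counts.

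Across the transcriptome no gene separated the sets at an adjusted p under 0.05. Of 10738 genes tested, 0 were called by edgeR (0%), and the smallest adjusted p was 0.100. At an unadjusted p under 0.05 there were 997 genes, of which 501 (4.67%) stood higher in numbers 2 and 3 and 496 (4.62%) lower. Levels in the sets did not overlap within either genotype for 381 genes in the higher direction (3.55%) and 320 in the lower (2.98%). The log2 fold change was under 0.5 in size for 90.5% of genes, and the 95% interval lay within 1 log2 unit of 0 for 84.4% (88.9% of 9916 protein-coding genes). Limma voom also called 0, whereas DESeq2 called 111, with 86 higher and 25 lower. The edgeR count rested on mutant 1: without it 113 genes were called, and 215 with both libraries numbered 1 left out.

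The genes with the smallest p on the higher side were mostly small nucleolar RNAs, which guide methylation and pseudouridylation of ribosomal RNA and are commonly processed from introns. snoRNA:Me28S-U3344b stood at 9.57 and 16.8 CPM in w1118 2 and 3, and at 2.62, 2.29 and 3.299 CPM in w1118 1, 5 and 7. In the mutants it stood at 23.96 and 14.5 CPM in numbers 2 and 3, and at 7.71 and 6.22 CPM in numbers 1 and 7. The sets did not overlap, with a log2 fold change of 1.83 ± 0.25 (adjusted p = 0.100). The pseudouridylation guide snoRNA:Psi18S-1377d gave 1.03 ± 0.15 and snoRNA:Psi28S-3316a 1.06 ± 0.16, at the same adjusted p. scaRNA:PsiU2-35.45, a Cajal body guide for U2, gave 1.04 ± 0.19 (adjusted p = 0.145).

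As a class these RNAs leaned higher by gene, mainly in w1118, while their share of counts did not separate the sets. Of 309 small nuclear and nucleolar RNA genes 213 passed the filter. Of these, 206 had a log2 fold change above 0, and the median was 0.94 against -0.0017 over all genes tested. At an unadjusted p under 0.05, 100 were higher and 1 lower, against 4.67% and 4.62% of all genes. The separation was plainest in w1118, where 186 of 213 (87.3%) stood higher in both numbers 2 and 3 than in the other libraries, against 11.8% of all genes. In the mutants 55 did (25.8%, against 22.0% of all genes). Fitted apart, the medians were 1.48 in w1118 and 0.37 in the mutant. The class took 1.50% of gene counts in mutant 1, the highest of the 9 libraries, and 0.483% in w1118 1, the lowest. Its share was 1.26 ± 0.160% in numbers 2 and 3 and 0.902 ± 0.378% in the others (exact permutation p = 0.133, adjusted 0.192). Mutant 1 had the lowest share of reads outside genes among the mutants (9.83%) and w1118 1 the lowest of all 9 (6.66%). With the share outside genes among reads not aligned to several places as a covariate, the median was 1.53. Without mutant 1 it was 1.42. This covariate, used in every such fit below, ran from 9.24% to 27.3% and also separated the number sets within each genotype. Near-identical copies make levels of individual small RNAs uncertain.

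Other RNA classes without coding function also leaned higher. Of 489 genes annotated as noncoding RNA, 130 reached an unadjusted p under 0.05 in the higher direction and 8 in the lower (median 0.32). For 21 tRNA genes these counts were 6 and 0 (median 1.12). Over all genes tested, 4.67% and 4.62% reached it. The antisense RNA asRNA:CR44969 stood at 6.72 and 6.13 CPM in w1118 2 and 3, against 1.31 to 2.97 CPM in w1118 1, 5 and 7. In the mutants it stood at 12.5 and 19.7 CPM against 5.19 and 7.01 CPM (log2 fold change 1.47 ± 0.21, adjusted p = 0.100). It overlaps CG3164 on the other strand, so its reads cannot be told from those of its partner without the strand used in counting. CG33655 (1.65 ± 0.27), which overlaps CG9485, and CG7457 (0.64 ± 0.12), which overlaps Mcad, carry the same limit.

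Of 9916 protein-coding genes, 257 stood higher and 481 lower at an unadjusted p under 0.05, and their median was -0.00926. Over all 10738 genes tested these counts were 501 (4.67%) and 496 (4.62%). The median of the protein-coding class lay close to 0, though more of its genes passed that p on the lower side than on the higher. Among protein-coding genes on the lower side the smallest p belonged to CG5934. It stood at 21.2 and 20.7 CPM in w1118 2 and 3 against 29.7 to 31.1 CPM in w1118 1, 5 and 7. In the mutants it stood at 16.9 and 16.5 CPM in numbers 2 and 3 against 24.8 and 21.7 CPM in numbers 1 and 7. The log2 fold change was -0.51 ± 0.09 (adjusted p = 0.138). lncRNA:cherub, a long noncoding RNA studied in neural stem cell tumours, gave -0.86 ± 0.15 (adjusted p = 0.139). Lower values without overlap were also seen for 14-3-3epsilon, a phosphoserine-binding adaptor (-0.48 ± 0.10), veli, a synaptic scaffold (-0.39 ± 0.09), Syn, the vesicle protein synapsin (-0.45 ± 0.11, overlapping Timp), Prosbeta5, a proteasome subunit (-0.45 ± 0.10, overlapping Lsm10), and ND-AGGG, a subunit of respiratory complex I (-0.41 ± 0.10). Adjusted p-values of these 5 lay between 0.211 and 0.249. Ribosomal protein genes had values below 0 for 69 of 83 with a median of -0.0888, and nuclear oxidative phosphorylation genes for 52 of 73 with a median of -0.0809. In mutants 2 and 3, 48 of 83 ribosomal genes lay lower without overlap and 1 higher (19.6% and 22.0% of all genes). In w1118 2 and 3 these counts were 4 and 9 (1290 and 1271 of all 10738 genes). Of 73 phosphorylation genes, 29 lay lower and 4 higher in the mutants, 15 and 5 in w1118. Number 7 was the highest library of both genotypes for 41 of 83 and 23 of 73 (10.4% of all genes). Fitted in the mutant alone, the medians were -0.26 and -0.16.

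**Figure D2:**
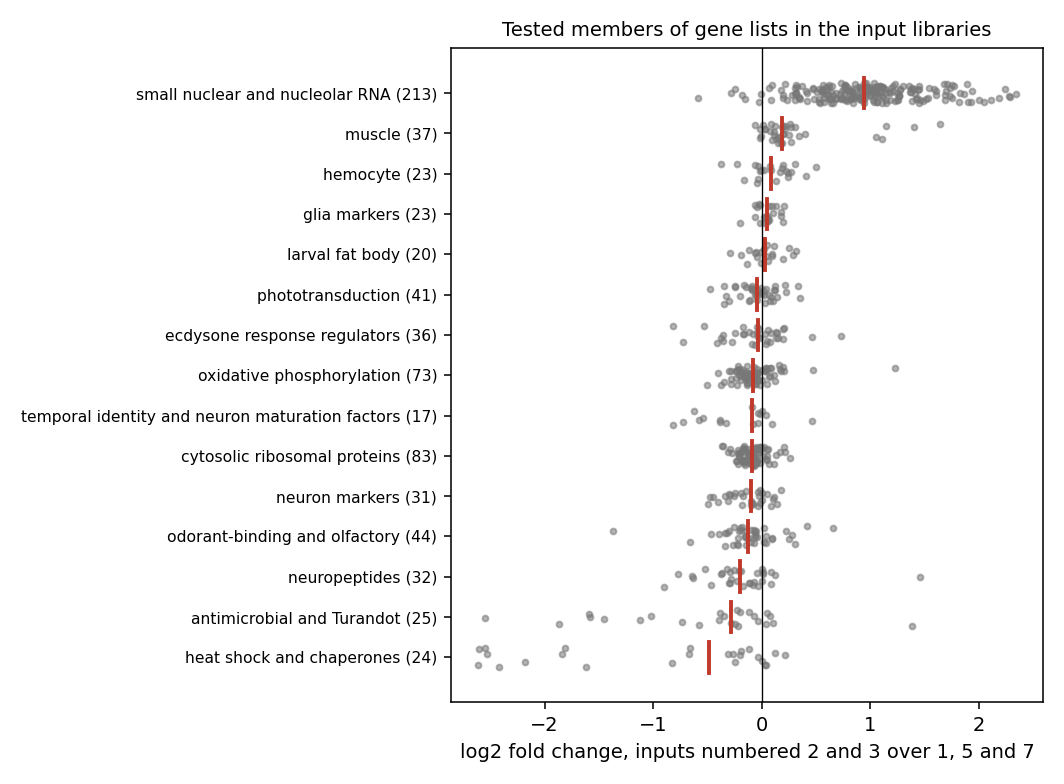
Each grey point is a tested gene of a list (number tested in parentheses), placed on the horizontal axis by its log2 fold change between inputs numbered 2 and 3 and those numbered 1, 5 and 7; red bars are list medians. The small nuclear and nucleolar RNAs centre on 0.94, heat-shock genes spread from -2.62 to 0.22, and the other lists, apart from antimicrobial genes (-0.29), centre between -0.20 and 0.18.

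Heat-shock genes had values from -2.62 to 0.22, and most of them were highest in the libraries numbered 7. Hsp26, a small heat-shock chaperone, stood at 15.7 and 12.2 CPM in w1118 2 and 3, and at 12.3, 67.7 and 159.5 CPM in w1118 1, 5 and 7. In the mutants it stood at 49.6 and 44.4 CPM in numbers 2 and 3, and at 86.6 and 522.1 CPM in numbers 1 and 7. Number 7 was the highest library of each genotype, and w1118 1 lay with w1118 2 and 3. The log2 fold change was -2.61 ± 0.79 with an adjusted p of 0.426, and -1.27 without both libraries numbered 7. Hsp23 had a like order, from 8.79 CPM in w1118 1 to 141.2 in w1118 7 and 536.8 in mutant 7 (-2.55 ± 0.88, adjusted p = 0.470). Hsp70Bb, a copy of the main inducible chaperone whose near-identical copies make its level uncertain, stood at 5.30, 2.44, 5.99, 20.1 and 40.7 CPM in w1118 2, 3, 1, 5 and 7. In mutants 2, 3, 1 and 7 it stood at 20.0, 10.1, 27.3 and 125.1 CPM. Its sets did not overlap within a genotype (-2.42 ± 0.69, adjusted p = 0.393).

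Of 27 heat-shock and chaperone genes 24 were tested, and 0 and 11 reached an unadjusted p under 0.05 in the higher and lower directions (median -0.49). Over all genes tested, 4.67% and 4.62% reached it. In mutants 2 and 3, 15 of 24 lay lower without overlap and 2 higher (19.6% and 22.0% of all genes). In w1118 2 and 3, 3 lay lower and 2 higher (1290 and 1271 of all 10738 genes). Hsp70Bb was the only member lower without overlap in both genotypes. Fitted apart, the medians were -0.20 in w1118 and -0.50 in the mutant. Number 7 was the highest library in both genotypes for 15 of 24 (62.5%), against 10.4% of all genes tested. In the fit of both genotypes the median was -0.24 without mutant 7 and -0.11 without both libraries numbered 7. It was -0.83 without mutant 1, -0.87 without both libraries numbered 1 and -1.05 with the share of reads outside genes as a covariate. With both libraries numbered 1 left out, when 215 genes were called, 9 of this list were among them. The summed level of the list was 3689 to 4230 CPM in numbers 2 and 3 and 3384 to 7298 CPM in the others, so the ranges overlapped.

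Antimicrobial and Turandot genes, the immune and humoral stress products, were highest in mutant 7. All 25 tested members had their highest mutant level there (100%, against 32.7% of all genes), and 5 of 25 were also highest in w1118 7. BomS3, a short Bomanin peptide of the Toll response, stood at 9.57, 7.67, 15.7, 20.8 and 22.96 CPM in w1118 2, 3, 1, 5 and 7, and at 18.9, 11.53, 21.7 and 97.0 CPM in mutants 2, 3, 1 and 7. The sets did not overlap within either genotype, though mutant 7 stood far above the rest (-1.58 ± 0.46, adjusted p = 0.400). BomBc1 gave -1.59 ± 0.50 and Listericin -2.55 ± 0.96. Of the 25, 0 were higher and 5 lower at an unadjusted p under 0.05, against 4.67% and 4.62% of all genes. The median of the list was -0.29. With 1 library left out it ran from -0.82 (without w1118 3) to 0.17 (without mutant 7). Fitted apart, the median was 0.40 in w1118 and -1.73 in the mutant, so the list as a whole leaned lower in the mutant only. In mutants 2 and 3, 17 of 25 lay lower without overlap and 0 higher (19.6% and 22.0% of all genes). In w1118 2 and 3, 2 lay lower, BomS3 and BomBc1, and 4 higher (1290 and 1271 of all 10738 genes). Thor, the translation inhibitor 4E-BP that insulin signalling represses, stood at 21.6 and 27.1 CPM in w1118 2 and 3 and at 40.0 to 42.1 CPM in the other w1118 inputs, but at 40.0, 40.6, 43.5 and 134.0 CPM in mutants 2, 3, 1 and 7 (-0.94 ± 0.30, adjusted p = 0.426). Lists for the unfolded protein response, hypoxia and glycolysis, and oxidative stress had medians of 0.0282, -0.0154 and -0.111.

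**Figure D3:**
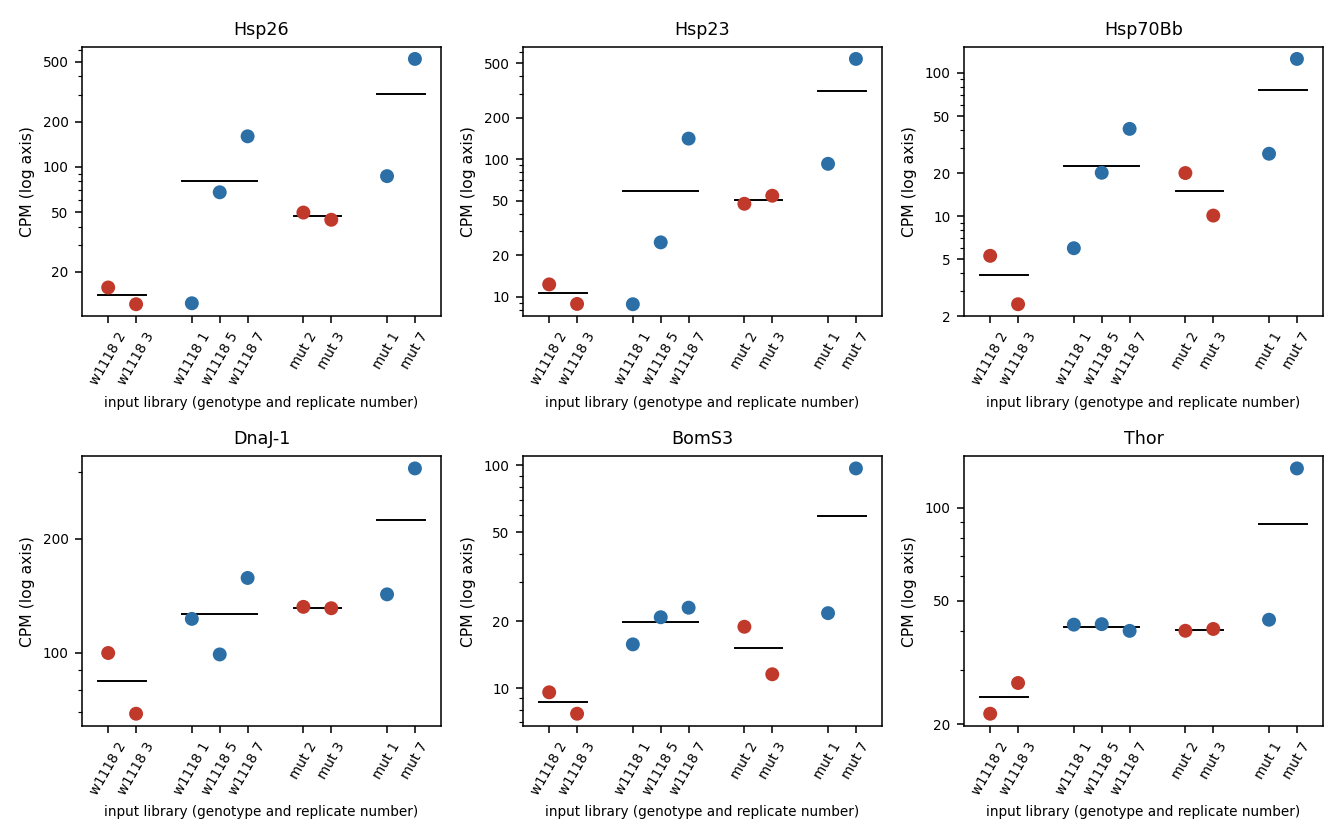
CPM (log axes) of 6 stress-responsive genes in each input library, with group means as black lines (red, numbers 2 and 3; blue, numbers 1, 5 and 7). Mutant 7 is the highest point in every panel, and w1118 7 is the highest w1118 library for Hsp26, Hsp23, Hsp70Bb, DnaJ-1 and BomS3 but not for Thor.

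Of the lists that report pupal age, those for cuticle, pigment, tanning and vision had medians close to 0, and the odorant-binding and olfactory list lay lower. Cuticle proteins had a median of 0.00891 with 5 higher and 4 lower of 79 tested at an unadjusted p under 0.05, eye pigment genes -0.00553, phototransduction genes -0.0422 and cuticle tanning genes 0.0505. Regulators of the ecdysone response had a median of -0.0368, with 1 higher and 7 lower of 36. Odorant-binding and olfactory genes, which come on late in antennal development, had a median of -0.128, with 32 of 44 below 0 and 0 higher and 5 lower at an unadjusted p under 0.05. Number 7 was the highest library of both genotypes for 11 of 44, against 10.4% of all genes. Products of the prepupal and early pupal stage were hardly present: 3 of 25 passed the filter, with a median of -0.211.

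A group of temporal identity factors, which set the successive fates and later maturation of neurons, had lower levels in w1118 2 and 3, while the mutants overlapped. A difference between genotypes was not called for any of the genes named here. Eip93F, an ecdysone-induced factor of late neuroblasts and adult fate, stood at 199.5 and 170.8 CPM in w1118 2 and 3, and at 345.2, 424.0 and 444.4 CPM in w1118 1, 5 and 7. In mutants 2, 3, 1 and 7 it stood at 291.9, 270.2, 233.6 and 535.0 CPM, so the sets overlapped (-0.82 ± 0.25, adjusted p = 0.385). chinmo, which marks early-born neurons, stood at 85.0 and 53.8 CPM in w1118 2 and 3 against 140.7 to 180.4 CPM in the others, while the mutants spanned 78.2 to 111.6 CPM with overlap (-0.72 ± 0.25, adjusted p = 0.469). The BTB factor mamo (-0.63 ± 0.23) and the RNA-binding proteins Syp (-0.58 ± 0.20) and Imp (-0.54 ± 0.22), which oppose each other in temporal patterning, had the same layout. Of 17 list members tested, 8 lay lower in both w1118 libraries without overlap (47.1%, against 1290 of all 10738 genes) and 0 did in the mutants (against 19.6%). In the mutants 5 of 17 lay higher in numbers 2 and 3 without overlap (29.4%, against 22.0% of all genes). General neuron markers (15 of 31, 48.4%) and ecdysone response regulators (11 of 36, 30.6%) also lay lower in w1118 2 and 3, and their part in the values of the temporal factors was not tested. In mutants 2 and 3 the ecdysone regulators lay higher without overlap for 13 of 36 (36.1%) and lower for 3. For the list of temporal factors, 1 member was higher and 6 were lower at an unadjusted p under 0.05, against 4.67% and 4.62% of all genes. Their median was -0.088. With the share of reads outside genes as a covariate the median was 0.17.

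**Figure D4:**
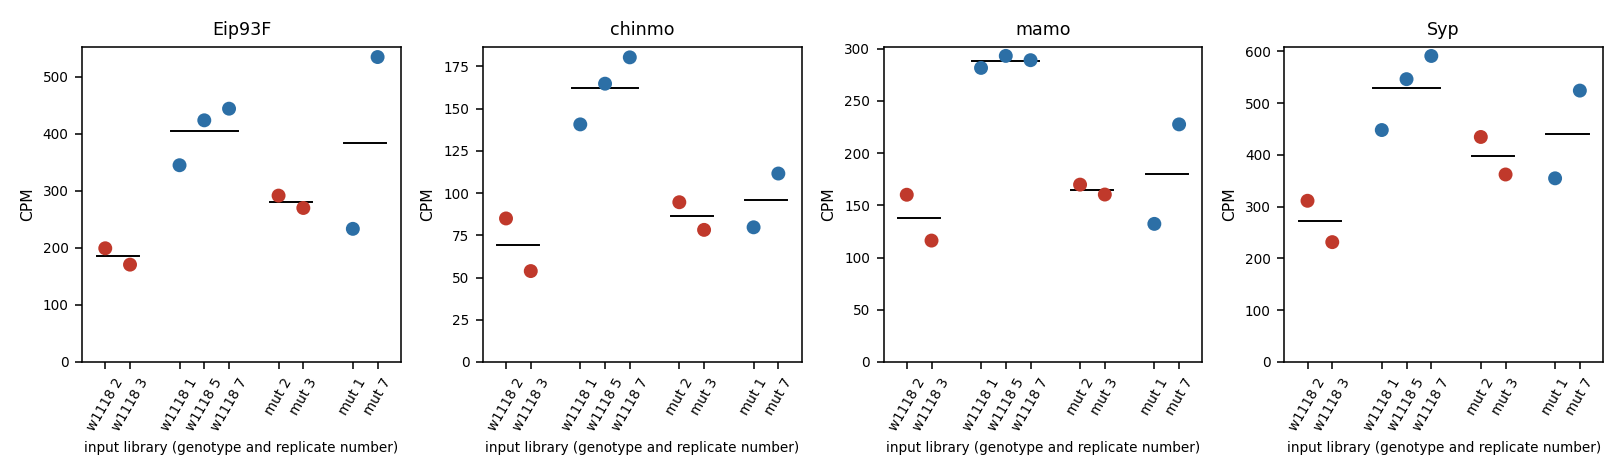
CPM of 4 temporal identity genes in each input library, with group means as black lines (red, numbers 2 and 3; blue, numbers 1, 5 and 7). In w1118 both red points lie below all 3 blue points for each gene; in the mutants the colours overlap.

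Markers of glia, eye and fat body had medians close to 0, while neuron markers lay lower in w1118 2 and 3 and muscle genes leaned higher. Glia markers had a median of 0.0514 with 0 of 23 at an unadjusted p under 0.05 in either direction, photoreceptor and lens markers -0.019, larval fat body 0.0305 and adult fat body -0.0116. These medians join both genotypes. Fitted apart, the glia median was 0.14 in w1118 and -0.087 in the mutant. In w1118 2 and 3, 34.8% of glia markers lay higher without overlap, against 11.8% of all genes. In mutants 2 and 3, 43.8% of photoreceptor and lens markers lay lower without overlap and 18.8% higher, against 19.6% and 22.0% of all genes. Neuron markers were below 0 for 24 of 31 (median -0.0947), and 15 of 31 (48.4%) lay lower in both w1118 2 and 3 without overlap, against 1290 of all 10738 genes. They summed to 17937 and 15321 CPM in w1118 2 and 3 and to 22635, 19517 and 21669 CPM in w1118 1, 5 and 7. In mutants 2, 3, 1 and 7 they summed to 15383, 14323, 14651 and 13614 CPM, with overlap. There 4 of 31 lay lower without overlap (against 19.6% of all genes) and 8 lay higher (25.8%, against 22.0% of all genes). Fitted apart, their median in w1118 was -0.35. Muscle genes were above 0 for 33 of 37 with a median of 0.18, and 4 reached an unadjusted p under 0.05 in the higher direction. Levels in numbers 2 and 3 lay above without overlap for 32.4% of them in w1118 and 45.9% in the mutants, against 11.8% and 22.0% of all genes. The thick-filament genes Mhc (0.40 ± 0.15, adjusted p = 0.470) and Prm (0.26 ± 0.12, adjusted p = 0.530) were among them. Without both libraries numbered 7 the muscle median was 0.0504. Blood cell and basement membrane genes were above 0 for 14 and below 0 for 9 of 23, with values from -0.38 to 0.50 and a median of 0.0834. At an unadjusted p under 0.05, 5 were higher and 0 lower, against 4.67% and 4.62% of all genes. Of these 5, Hml, a hemocyte marker, stood at 355.3 and 372.5 CPM in w1118 2 and 3 against 239.9 to 258.9 CPM, with overlap in the mutants (0.41 ± 0.12, adjusted p = 0.335). The laminin chains LanB1 (0.31 ± 0.09) and LanB2 (0.27 ± 0.09) did not overlap in either genotype.

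Neuropeptide genes leaned lower, with 1 higher and 7 lower of 32 at an unadjusted p under 0.05 and a median of -0.20. In the fit of both genotypes the median was -0.108 without mutant 7, -0.130 without w1118 7 and -0.120 without both. Number 7 was the highest library of both genotypes for 11 of 32 (34.4%, against 10.4% of all genes). SIFa, made by a few neurons of the dorsal brain, stood at 16.4 and 11.8 CPM in w1118 2 and 3 against 19.3, 27.0 and 28.3 CPM in w1118 1, 5 and 7. In the mutants it stood at 10.47 and 9.74 CPM against 13.2 and 27.9 CPM, again without overlap (-0.91 ± 0.22, adjusted p = 0.275). Its exons overlap Start1 on the other strand. Crz, encoding corazonin, gave -0.65 ± 0.19, and Orcokinin -0.63 ± 0.21.

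A contrast that differed between the genotypes was called for 1 of 11072 genes (0.00903%), Cyp4g1, the cytochrome P450 of oenocytes that makes cuticular hydrocarbons. It had 798 and 958 counts in mutants 2 and 3, and 1 and 3 counts in mutants 1 and 7. In w1118 2, 3, 1, 5 and 7 it had 11, 8, 3, 3 and 6 counts. The mutant contrast exceeded that of w1118 by 7.79 ± 0.74 log2 units (edgeR adjusted p = 0.00527), a fitted value that rests on counts of 1 to 11 in the low libraries, and the call was lost without w1118 1 (7.79, adjusted p = 0.0871) or without w1118 7 (7.40, adjusted p = 0.136). Osi20, a member of the Osiris family of insect transmembrane proteins, had 515 and 314 counts in mutants 2 and 3 and 16 to 56 in the other 7 inputs (interaction 4.97 ± 0.68, adjusted p = 0.236). The 23 Osiris genes summed to 204.9 and 157.7 CPM (without TMM scaling) in mutants 2 and 3 and to 49.5 to 97.0 CPM in the others.

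Other genes were also high in those 2 libraries. Act79B, an actin of tubular muscle, stood at 272.5 and 294.7 CPM in mutants 2 and 3 against 83.8 and 89.9 CPM in mutants 1 and 7. In w1118 it stood at 167.7 and 144.1 CPM in numbers 2 and 3 against 88.3 to 130.0 CPM (1.11 ± 0.23, adjusted p = 0.218). Testis and Y-linked genes, which heads should lack, were higher in mutants 2 and 3 without overlap for 9 of 12 tested (75.0%, against 22.0% of all genes). The other 18 of 30 listed genes failed the filter, which genes this low pass only through the libraries where they are high. The share is thus partly set by the filter and is no test. The spermatogenesis genes betaTub85D, dj and Mst87F together had 250 and 197 counts in mutants 2 and 3, and 23 and 50 in mutants 1 and 7. They had 123 counts in w1118 5 and 2 to 33 in the other w1118 inputs. Whether the testis counts bear on the Cyp4g1, Osiris or Act79B values was not tested.

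**Figure D5:**
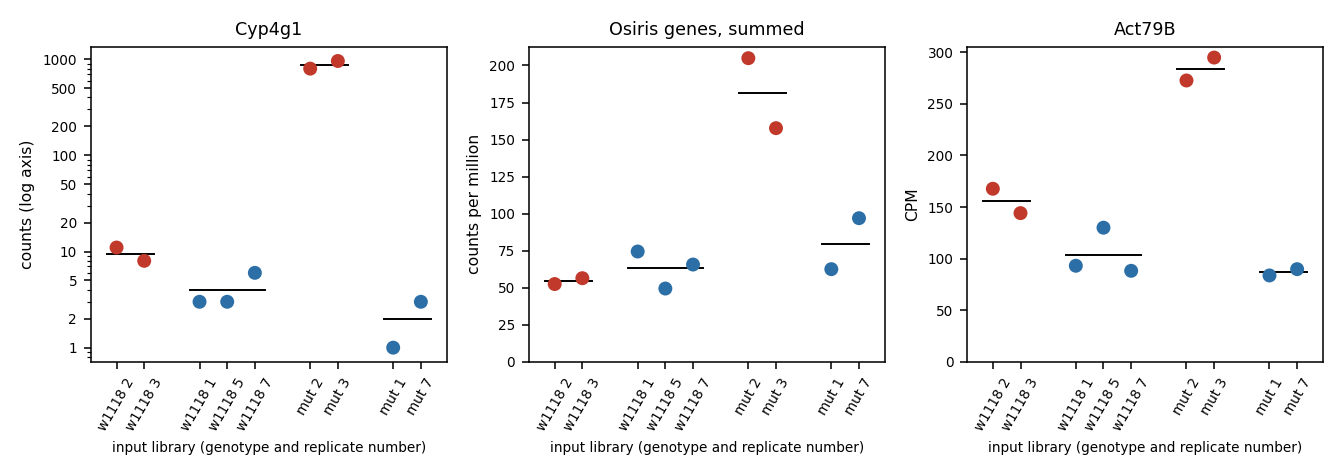
Cyp4g1 counts (log axis), summed Osiris genes in CPM without TMM scaling, and Act79B in CPM for each input library, with group means as black lines (red, numbers 2 and 3; blue, numbers 1, 5 and 7). Mutants 2 and 3 are the 2 highest points in every panel, at 798 and 958 Cyp4g1 counts.

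The same contrast was fitted in the pull-down libraries. In the Fmr1 libraries 1764 of 10327 genes rose (17.1%) and 1917 fell (18.6%) in numbers 2 and 3, and in the IgG libraries 143 of 6570 rose (2.18%) and 84 fell (1.28%), with edgeR at an adjusted p under 0.05. The IgG count of 227 ran from 55 (without w1118 2) to 626 (without w1118 7) with 1 library left out, and it was not tested against the inputs. In a fit of input and Fmr1 libraries together the Fmr1 contrast exceeded the input contrast for 1190 of 11569 genes (10.3%) and fell short of it for 999 (8.64%). That fit treated input and pull-down as independent although the protocol draws them from the same lysate.

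For the genes described above, the Fmr1 libraries gave a mixed account. Of 24 heat-shock and chaperone genes 10 fell and 2 rose. Hsp70Ab stood at 0.767, 0.759, 4.02, 38.2 and 49.7 CPM in Fmr1 libraries w1118 2, 3, 1, 5 and 7, and at 1.17, 0.620, 22.6 and 98.0 CPM in mutants 2, 3, 1 and 7 (-5.62 ± 0.91, adjusted p = 0.0029), beside -1.62 ± 0.45 in the inputs. In the IgG libraries, without an Fmr1 antibody, it fell by 5.21 ± 0.99 (adjusted p = 0.023). DnaJ-1, a cochaperone of Hsp70, fell by 1.31 ± 0.25 on the log2 scale in the Fmr1 libraries and by 1.84 ± 0.38 in the IgG libraries (adjusted p = 0.020). Act79B rose by 1.77 ± 0.19 (adjusted p = 0.00025). mamo, lower in the w1118 inputs, rose by 0.79 ± 0.17 in the Fmr1 libraries, and the difference from its input contrast was 1.43 ± 0.25 (adjusted p = 0.0015). ND-AGGG stood at 1.98, 2.79, 9.91, 14.4 and 9.72 CPM in Fmr1 libraries w1118 2, 3, 1, 5 and 7 and fell by 2.29 ± 0.18, against -0.41 ± 0.10 in the inputs (difference -1.86 ± 0.18, adjusted p = 6.4e-05). Of 121 small nuclear and nucleolar RNAs tested in the Fmr1 libraries, 19 rose and 15 fell, smaller shares than the 17.1% and 18.6% of all genes tested there, and their median was -0.12.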

How the data were processed

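The authors deposited raw counts of reads per gene, 1 column for each of 27 libraries and 0 columns without a sample. Per the labels' protocols, strand-specific, rRNA-depleted libraries were made from input and pull-down RNA. Per the submitters' processing notes, bcl2fastq 2.20, Trim Galore and STAR were used. The genome build, the counting tool, the strand setting and any use of molecular identifiers are not given in the sources used here. The last 5 entries of the table, reads counted in no gene, were left out of library sizes and tests, and reads without a feature made up 6.66% to 14.4% of listed reads in inputs.

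Of 17807 gene identifiers, 17710 were found in the Ensembl release 115 annotation of BDGP6.54, used for names, classes and overlaps only. Genes were filtered with filterByExpr (minimum count 10, minimum total 15, 7069 removed), scaled with TMM and tested with edgeR 4.0.16 (R 4.3.3) in a robust quasi-likelihood fit with genotype and number set, with Benjamini-Hochberg adjustment over all genes and a threshold of 0.05. Fold changes are log2 with SE, and levels are TMM-scaled CPM. The biological coefficient of variation was 0.166. Interaction, Fmr1 and IgG fits used the same settings. Library measures were tested by exact permutation within genotype. The fits of the input and Fmr1 libraries were tested on simulated data. Alternatives included DESeq2 1.42.0, limma 3.58.1 voom, other scalings and filters, each genotype alone and each library left out.

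The number sets, the 39 gene lists (970 entries, 30 not found) and the genes to be named were chosen with earlier results of these data known, so no test was run over a list. Named genes were the 12 in each direction with the smallest p and a mean log2 CPM of at least 2 (filling up for called genes, of which there were 0), from every list at most 4 members ranked by p, the 5 interaction genes with the smallest p, Ythdf and Fmr1. Of the genes in the text Hsp23, Hsp68, DnaJ-1, chinmo, mamo, Imp and Act88F were chosen after their values were seen, as were the Osiris sum and the sum over betaTub85D, dj and Mst87F. Nothing in the labels says that libraries of a group came from separate collections, so p-values measure the spread between these libraries.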

Additional observations from a re-analysis of the deposited data

Results flagged for a closer look

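Within each number set, an input library that stood apart from the others by the gap test for small groups was looked for among the named genes, list sums and library measures. Chance alone gives such a gap in about 1 group in 20. Mutant 7 stood above the other inputs numbered 1, 5 and 7 for Hsp26 (522.1 CPM), Hsp23 (536.8 CPM), DnaJ-1 (305.9 CPM), BomS3 (96.98 CPM), BomBc1 (58.27 CPM), Listericin (35.36 CPM), Thor (134.0 CPM), InR (143.5 CPM) and the summed antimicrobial and Turandot genes (938 CPM), and below them for Hml (180.9 CPM). In the same set mutant 1 stood apart for Imp (47.21 CPM) and for the share of counts in genes annotated as noncoding RNA (1.929%), and w1118 5 for Act79B (130 CPM). Among numbers 2 and 3, w1118 2 stood apart for snoRNA:Psi28S-3405b (83.65 CPM), mutant 2 for scaRNA:PsiU2-35.45 (10.16 CPM) and for Crz (3.08 CPM), and w1118 3 for the share of counts in rRNA genes (3.587%). The number-set contrast of Cyp4g1 differed between genotypes by 7.79 log2 units, mutant minus w1118.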

How the results depend on the processing

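The count of genes called in the inputs, 0 with edgeR, was 111 with DESeq2, 46 in w1118 alone, 2 with all 27 libraries in the fit, and 1 in the mutant alone, with no filter, with counts summed by number or with number 5 left out. Leaving out 1 library at a time gave 0 to 113, and leaving out both libraries numbered 1, chosen after seeing the data, gave 215, all with the sign of the fit of 9 libraries. The cause was not tested. Other scalings, a stricter filter and limma voom gave 0. Of 1012 medians of 39 lists under the alternatives 33 moved by more than the spread between replicates, 16 of them with the share of reads outside genes as a covariate (added after seeing the data), 6 in the mutant alone and 5 in w1118 alone. Among the lists the text leads with, these were antimicrobial genes in the mutant alone (-1.73), hemocyte genes in w1118 alone (0.24), and, under that covariate, neuropeptides (-0.44) and temporal factors (0.17). Signs turned for Act88F under that covariate (-1.02), for Osi20 in w1118 alone (-0.90), and for the number-set value of Ythdf with counts summed by number (-0.047), without the genotype term (-0.039), and without both libraries numbered 7 (-0.025); with 1 library left out it ran from -0.0072 (without mutant 7) to 0.096. Leaving out 1 library gave 0 to 6 interaction calls, 55 (without w1118 2) to 626 (without w1118 7) IgG calls and 1445 (without mutant input 2) to 2464 calls for the difference between Fmr1 and input. A replicate block in limma voom gave 0 calls. Same-numbered inputs of the genotypes had correlated deviations of 0.0543 to 0.385 over 4 pairs. Across numbers, w1118 5 gave 0.460 with mutant 2, 0.360 with mutant 3 and -0.582 with mutant 1. The numbers were therefore not taken to pair the samples. Depth was lowest in w1118 1 (5623123 counts in genes).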
